A study of Mus musculus with 2 samples.

Results

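The TGF-beta pathway genes described here are the ligand gene Tgfb1, the receptor genes Tgfbr1 and Tgfbr2, the signal-carrying Smads Smad2, Smad3 and Smad4, and the inhibitor genes Smad7, Ski and Skil. They were chosen by symbol, and all 9 were found once each in the tables of both libraries, out of 31053 genes. Single-cell RNA was measured in cells of the mediastinal lymph nodes, which drain the lung, from WT mice of strain C57/B6J with asthma induced by ovalbumin (OVA). One library came from mice without butyrate (w/o butyrate) and 1 from mice given butyrate (w/ butyrate), a short-chain fatty acid made by gut bacteria. Each library pooled 4 mice, so no spread between mice could be seen, no test between the conditions was possible, and every interval below covers counting error only. Both groups had the same asthma model. The study's methods give 1 range of ages for all its mice, matched by age and sex within an experiment, and describe butyrate in drinking water or by gavage without naming which was used for these 2 libraries.

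TGF-beta1 is secreted in a latent form and, once released, binds the type II receptor TGFBR2, which recruits and activates the type I receptor TGFBR1. The activated receptor phosphorylates SMAD2 and SMAD3, which join SMAD4 and enter the nucleus to regulate transcription. SMAD7 blocks the receptor, SKI and SKIL (SnoN) repress the Smad complexes in the nucleus, and Smad7 and Skil are themselves switched on by the pathway. In lymph nodes the pathway is known for restraining T cell activation, for inducing Foxp3 in T cells and for switching B cells to IgA.

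In GRCm38, Tgfb1 lies at chr7:25687002-25705077 (+), Tgfbr1 at chr4:47353222-47414931 (+) and Tgfbr2 at chr9:116084293-116175360 (-). Smad3 lies at chr9:63646767-63757994 (-), Ski at chr4:155154075-155222592 (-) and Skil at chr3:31095058-31122577 (+). RefSeq promoters (GRCm38.p6) were at hand for 5 members, with 2 entries for Tgfbr1. They run from 250 bases before a RefSeq start site, which can lie inside the gene bounds given above, as the entry for Ski does. The Tgfbr2 and Ski promoters are shown because Tgfbr2 had the clearest order of levels among T cells and Ski was higher w/ butyrate in more than 1 T lineage. Capitals mark matches to CAGAC, a Smad-binding motif, searched as CAGAC and as GTCTG on the printed strand.
Tgfbr2, chr9:116175314-116175613 (-): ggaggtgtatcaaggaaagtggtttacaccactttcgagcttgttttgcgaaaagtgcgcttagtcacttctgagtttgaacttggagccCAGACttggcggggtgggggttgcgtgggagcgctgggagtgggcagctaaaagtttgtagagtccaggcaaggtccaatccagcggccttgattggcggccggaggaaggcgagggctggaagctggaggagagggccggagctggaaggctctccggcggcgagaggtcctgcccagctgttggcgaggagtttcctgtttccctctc
Ski, chr4:155222486-155222785 (-): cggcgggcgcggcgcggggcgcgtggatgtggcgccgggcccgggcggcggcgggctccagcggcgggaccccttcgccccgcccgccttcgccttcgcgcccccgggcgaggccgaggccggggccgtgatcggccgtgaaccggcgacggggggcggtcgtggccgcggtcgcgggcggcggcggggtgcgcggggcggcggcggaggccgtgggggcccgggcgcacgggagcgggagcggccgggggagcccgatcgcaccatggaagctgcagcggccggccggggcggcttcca
Tgfbr2 held 1 match and Ski none, and 49.6% of 32851 promoters of the same length held at least 1. A match is a description of the letters and was not linked to any level below.

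After filtering, 8760 cells w/o butyrate and 7990 cells w/ butyrate were left, with 52474859 and 52035206 UMIs (unique molecular identifiers, 1 per captured transcript) and medians of 5074.5 and 5649.5 UMIs per cell. Cells were put in lineages by UMIs of Cd79a, Cd3e, Cd4, Cd8a, Foxp3 and Lyz2 alone. This gave 4120 and 3868 B cells, 949 and 848 conventional CD4+ T cells, 1602 and 1643 CD8+ T cells, 182 and 161 Foxp3+ regulatory T cells, 1100 and 855 other T cells and 36 and 29 Lyz2+ myeloid cells, w/o and w/ butyrate respectively. Other T cells carried Cd3e but no defining combination of Cd4, Cd8a and Foxp3. The remaining 771 and 586 cells met no rule. The lineages were compared with markers that the rules did not use. The 5 such B markers summed to 4290 and 4692 CPM (UMIs of a gene or list per 1000000 UMIs of the lineage) in B cells against 39.1 and 36.9 CPM in all T cells, and the 5 T markers to 2961 and 2880 CPM in T cells against 51.0 and 49.2 CPM in B cells. The 4 regulatory T markers besides Foxp3 summed to 1598 and 1453 CPM in regulatory T cells against 233 and 179 CPM in conventional CD4+ T cells. The deposited tables shared 25 cell barcodes, of which 22 were in kept cells. Free RNA was estimated from 5 B cell markers at 2.30% and 1.99% of UMIs. If free RNA had the make-up of all cells together, it would give the most for Smad7 w/o butyrate, at 4.31 CPM. This is a point estimate and not an upper bound.

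Tgfb1 was highest in Lyz2+ myeloid cells, regulatory T cells and B cells, and lowest in CD8+ T cells, in both libraries. W/o butyrate, its level was 367 CPM (95% Poisson interval 303 to 440) in myeloid cells, 131 CPM (113 to 150) in regulatory T cells, 118 CPM (114 to 123) in B cells, 74.0 CPM (67.0 to 81.5) in conventional CD4+ T cells and 47.9 CPM (44.0 to 52.0) in CD8+ T cells. W/ butyrate, the levels were 163 CPM (122 to 212), 102 CPM (85.6 to 120), 131 CPM (127 to 136), 65.3 CPM (58.7 to 72.3) and 52.8 CPM (49.1 to 56.8) in the same order. The intervals of regulatory T cells and B cells overlapped w/o butyrate, and those of myeloid cells and B cells overlapped w/ butyrate. B cells were 1.60-fold above conventional CD4+ T cells w/o butyrate and 2.01-fold above them w/ butyrate. With every cell thinned to 2000 UMIs, 21.8% and 23.3% of B cells held a Tgfb1 UMI, against 9.37% and 9.20% of CD8+ T cells. Unthinned, these shares were 43.8% and 47.8% of B cells and 27.3% and 33.4% of CD8+ T cells.

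The 2 receptors did not follow the same order over the lineages. Tgfbr2 was highest in conventional CD4+ T cells, at 119 CPM (111 to 129) w/o and 125 CPM (116 to 135) w/ butyrate. B cells held 92.7 and 90.4 CPM and CD8+ T cells 80.6 and 83.5 CPM. Regulatory T cells held 52.2 CPM (41.4 to 64.8) and 56.9 CPM (44.9 to 71.1), which was 2.29-fold and 2.20-fold below conventional CD4+ T cells, and the order of these 4 lineages was the same in both libraries. Neighbouring B and CD8+ T cells overlapped w/ butyrate only in their intervals (86.4 to 94.6 and 78.8 to 88.4 CPM).

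Tgfbr1, by contrast, was not lower in regulatory T cells. They held 29.0 CPM (21.1 to 38.8) and 25.8 CPM (18.0 to 35.9), against 19.2 and 19.9 CPM in conventional CD4+ T cells. The intervals overlapped in both libraries. The log2 ratio of regulatory over conventional CD4+ T cells was 0.59 (0.06 to 1.11) w/o and 0.38 (-0.22 to 0.94) w/ butyrate. Myeloid cells held 98.1 CPM (66.7 to 139) and 26.6 CPM (12.2 to 50.5), from 31 and 9 UMIs. CD8+ T cells were the lowest, at 11.1 CPM (9.26 to 13.1) and 12.2 CPM (10.4 to 14.1), 1.74-fold and 1.64-fold below conventional CD4+ T cells. B cells held 17.9 and 16.3 CPM.

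Of the signal-carrying Smads, Smad2 differed least between lineages, whereas Smad3 and Smad4 were lower in B cells than in T cells. Smad2 lies at chr18:76241580-76310963 and Smad4 at chr18:73639009-73703780 in GRCm38. Smad2 lay between 16.7 and 30.6 CPM in every lineage and library, and lineages next to each other in the order of levels had overlapping intervals in both libraries. The log2 ratio of regulatory over conventional CD4+ T cells for Smad2 was -0.71 (-1.37 to -0.10) w/o and 0.01 (-0.55 to 0.55) w/ butyrate. Regulatory T cells held 26 and 36 of its UMIs. Smad3 was sparse, at 4.07 and 5.34 CPM in B cells and 8.14 and 9.25 CPM in all T cells, so B cells were 2.0-fold and 1.73-fold below T cells. Smad4, the shared partner of SMAD2 and SMAD3, was at 61.6 and 62.8 CPM in conventional CD4+ T cells and 57.2 and 59.6 CPM in CD8+ T cells, which overlapped. It was lower in B cells, at 36.2 and 38.1 CPM, and in regulatory T cells, at 39.3 and 39.9 CPM, both 1.57-fold or more below conventional CD4+ T cells. Myeloid cells held the highest Smad4 values, 79.1 CPM (51.2 to 117) and 65.0 CPM (40.7 to 98.4), from 25 and 22 UMIs. These intervals overlapped those of conventional CD4+ T cells. GENCODE M21 places 1 pseudogene on the opposite strand within Smad4, which has no row in the count tables.

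Smad7, the inhibitor of the receptor, lies at chr18:75367529-75395935. Conventional CD4+ T cells held 257 CPM (244 to 271) w/o and 272 CPM (259 to 286) w/ butyrate. CD8+ T cells held 204 and 215 CPM, B cells 149 and 133 CPM and myeloid cells 15.8 CPM (5.14 to 36.9) and 44.3 CPM (24.8 to 73.1), the last from 5 and 15 UMIs. These 4 lineages kept this order in both libraries, with no overlap of intervals. Regulatory T cells stood beside B cells w/o butyrate, at 150 CPM (131 to 171), and beside CD8+ T cells w/ butyrate, at 222 CPM (197 to 248).

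The repressor genes Ski and Skil did not share 1 order. Ski was at 58.6 and 61.0 CPM in conventional CD4+ T cells and 54.7 and 62.8 CPM in regulatory T cells, with overlapping intervals. It was lower in CD8+ T cells, at 34.5 and 43.4 CPM, and lowest in B cells, at 21.8 and 23.9 CPM, which was 2.68-fold and 2.55-fold below conventional CD4+ T cells. Skil in regulatory T cells was 61.2 CPM (49.5 to 74.8) and 87.9 CPM (72.8 to 105). In B cells it was 55.7 and 56.2 CPM, above the 33.1 and 37.8 CPM of CD8+ T cells. Conventional CD4+ T cells were below B cells in Skil w/o butyrate, at 44.4 CPM (39.0 to 50.3). W/ butyrate they were at 64.5 CPM (58.1 to 71.5), an interval that overlapped that of B cells. The log2 ratio of B over conventional CD4+ T cells was then -0.20 (-0.37 to -0.03).

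**Figure D1:**
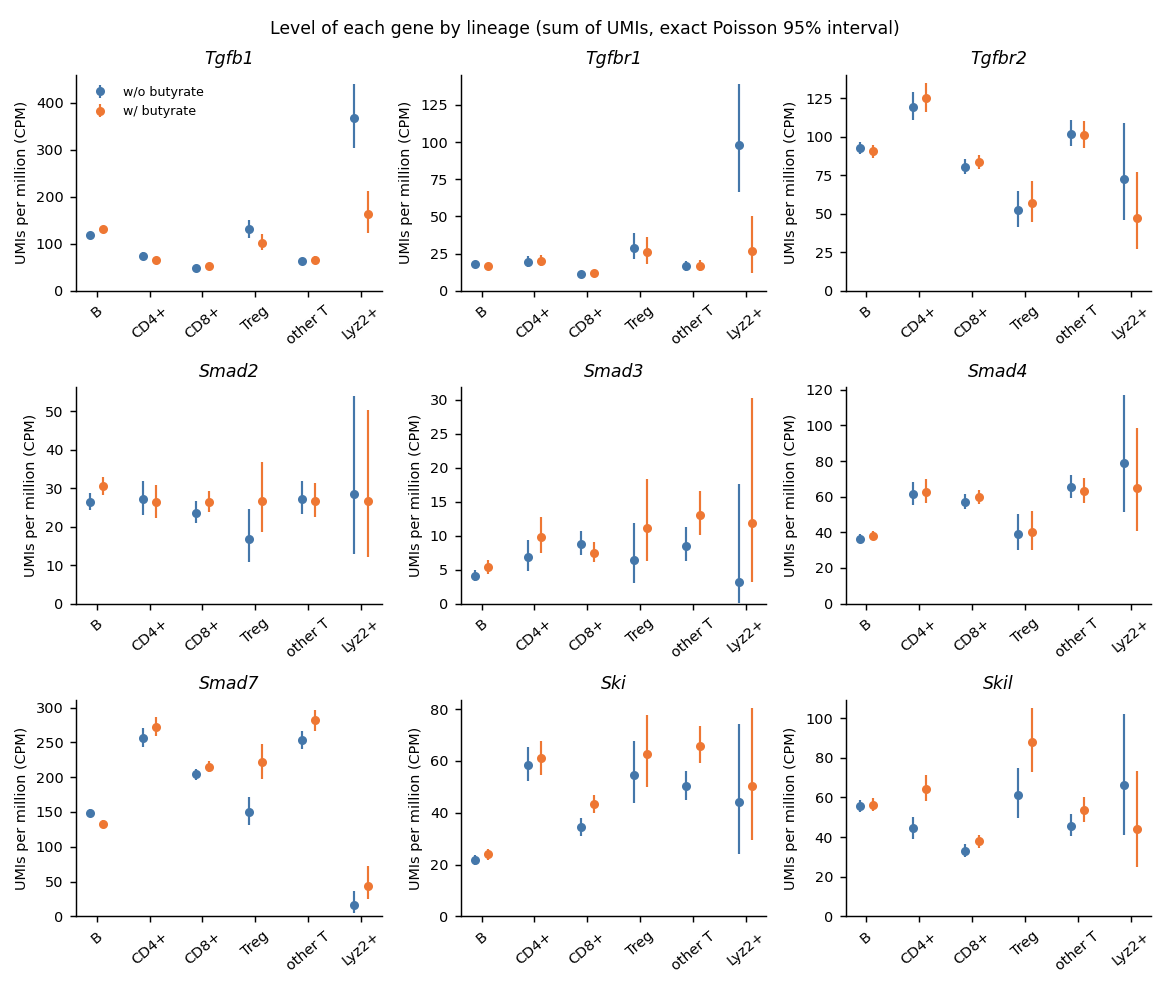
Level of each of the 9 genes in CPM (y axis, linear, from 0, scaled per gene) in 6 lineages (x axis), for the library w/o butyrate (blue) and w/ butyrate (orange). Points are sums over the cells of a lineage and bars are exact Poisson 95% intervals. Smad7 in myeloid cells (15.8 and 44.3 CPM) sits far below the T lineages, and Tgfbr2 is lower in regulatory (52.2 and 56.9 CPM) than in conventional CD4+ T cells (119 and 125 CPM).

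The libraries with and without butyrate were then compared within each lineage. Each condition was a single library, so these ratios cannot separate butyrate from other differences between the libraries. Ratios are log2 of CPM w/ over w/o butyrate with an exact 95% counting interval. A member was counted as past the fold threshold where its ratio was above 0.32 or below -0.32 on the log2 scale and it had at least 200 UMIs over both libraries. Counts are given by lineage in the paragraphs that follow, each beside the share of all genes past the threshold there. In the named lineages, those past it with an interval off 0 were Skil in conventional CD4+ T cells, Skil, Smad7 and Tgfb1 in regulatory T cells and Ski in CD8+ and other T cells.

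In B cells, all 9 members had enough UMIs. Smad3 alone was past the threshold higher, at 4.07 and 5.34 CPM from 205 UMIs in all, with an interval that included 0 (log2 0.39, -0.02 to 0.81). Of all 8478 genes tested in B cells, 4.03% were past the threshold higher and 3.69% lower. Within the threshold, Tgfb1 (log2 0.15, 0.08 to 0.23) and Smad2 (0.21, 0.05 to 0.37) were higher w/ butyrate and Smad7 was lower (-0.16, -0.23 to -0.08), against a median of 0.05 over all genes. B cells w/o butyrate carried more plasma cell marker RNA, 959 against 323 CPM over 4 markers, and without cycling and plasma-marker cells Smad7 was at -0.24, Smad3 at 0.22 and Tgfb1 at 0.12.

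In conventional CD4+ T cells, 8 members had enough UMIs and Skil was the only one past the threshold. It had 247 UMIs (44.4 CPM) w/o and 363 UMIs (64.5 CPM) w/ butyrate, a log2 ratio of 0.54 (0.30 to 0.78), which ranked 20 from the highest among 5084 genes. Among those genes 3.25% were past the threshold higher and 4.92% lower. Thinned to 2000 UMIs per cell, 8.68% of CD4+ cells held a Skil UMI w/o and 12.9% w/ butyrate, and 20.8% and 31.5% did so unthinned. No cell held more than 5 of these UMIs.

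Without cycling and plasma-marker cells the Skil ratio in conventional CD4+ T cells was 0.60, and without cells rich in interferon-response RNA it was 0.43. Of the regulatory T markers, 3 were counted in this lineage and all 3 were past the threshold lower. Ctla4 was at 69.5 and 54.1 CPM, Ikzf2 at 70.6 and 47.5 CPM and Tnfrsf18 at 81.0 and 64.4 CPM. Il2ra, not counted, was at 12.0 and 12.8 CPM. The 1 myeloid marker counted, Cst3, was at 112 and 72.7 CPM. The part of these markers in the Skil value was not tested. The other 7 members counted in conventional CD4+ T cells lay between -0.18 for Tgfb1 (-0.39 to 0.03) and 0.08 for Smad7 (-0.02 to 0.19), all with intervals that included 0.

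In CD8+ T cells, Ski was the 1 of 9 members past the threshold. It was at 34.5 CPM (411 UMIs) w/o and 43.4 CPM (606 UMIs) w/ butyrate, log2 0.33 (0.15 to 0.52), just past the fold used. The members next furthest from 0 were Smad3, lower at -0.24 (-0.65 to 0.16), and Skil at 0.19, both with intervals that included 0. Among 7151 genes tested in CD8+ T cells, 2.55% were past the threshold higher and 3.89% lower. Without cycling cells Ski was at 0.29, inside the threshold.

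In other T cells Ski was again past the threshold, 1 of 7 members. Smad3, with 119 UMIs in all, was under the minimum and not counted (log2 0.62, 0.07 to 1.17). Ski was at 50.3 CPM (302 UMIs) w/o and 65.9 CPM (344 UMIs) w/ butyrate (log2 0.39, 0.16 to 0.62), where 4.07% of 5033 genes were past the threshold higher and 4.35% lower. Thinned to 2000 UMIs per cell it was at 0.19, and without cells rich in interferon-response RNA at 0.26, both inside the threshold. Marker levels in other T cells also differed between the libraries. The gamma-delta T marker Tcrg-C1 was at 15.7 and 29.7 CPM. Of the myeloid markers, Cst3 was at 86.4 and 157 CPM, Fcer1g at 21.8 and 15.7 CPM and Tyrobp at 19.2 and 8.24 CPM. Of the dendritic markers, Siglech had 27 UMIs w/o and 0 UMIs w/ butyrate, Ccr9 had 215 and 114 UMIs and Fscn1 had 35 and 58 UMIs. Neither the myeloid nor the dendritic list moved in 1 direction. The part of these markers in the Ski value was not tested.

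Among the cells that met no rule, Tgfb1 was past the threshold higher, 1 of 7 members, at 75.2 CPM (357 UMIs) w/o and 97.3 CPM (407 UMIs) w/ butyrate (log2 0.37, 0.16 to 0.58). There 9.96% of 4730 genes were higher and 5.18% lower. Tgfb1 was at 0.14 in them without doublet removal and at 0.08 with stricter lineage cuts. These cells were a mixture that differed between the libraries, with 6 myeloid markers at 994 and 1692 CPM, 3 neutrophil markers at 690 and 25.4 CPM and 4 plasma markers at 654 and 58.6 CPM.

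Over all T cells, no member was past the threshold, and 2.51% of 8696 genes were higher and 4.11% lower. The 2 members furthest from 0 there were Skil, at 40.4 and 49.2 CPM (0.29, 0.17 to 0.41), and Ski, at 44.9 and 52.6 CPM (0.23, 0.12 to 0.35). Tgfbr1, Tgfbr2 and Smad4 were between 0.02 and 0.03 over all T cells, with Tgfbr2 bounded by -0.05 and 0.11.

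In regulatory T cells, 3 members reached 200 UMIs and all 3 were past the threshold, 2 higher and 1 lower, in a lineage where 5.07% of 2012 genes were higher and 10.3% lower. Smad7 had 233 UMIs (150 CPM) w/o and 300 UMIs (222 CPM) w/ butyrate, a log2 ratio of 0.56 (0.31 to 0.82), rank 16 from the highest. Skil was at 61.2 and 87.9 CPM (0.52, 0.12 to 0.93), from 95 and 119 UMIs. Its 214 UMIs in all were just over the minimum, and more of them came from the library where it was higher. The count of 3 of 3 members therefore turns in part on the filter. Tgfb1 was lower w/ butyrate, at 131 and 102 CPM (-0.36, -0.68 to -0.04), and a single cell held 15 of its UMIs in each library, 7.39% and 10.9% of the total. This direction was not kept after thinning, and the cause of that was not tested. With every cell thinned to 2000 UMIs the Tgfb1 ratio turned to 0.55, and 15.5% of regulatory T cells w/o and 24.1% w/ butyrate held a Tgfb1 UMI, against 45.1% and 45.3% unthinned. Thinned, Smad7 was at 0.60 and Skil at 1.04, and no member reached 200 UMIs.

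Cycling markers were high in regulatory T cells and differed between the libraries, at 1657 and 1156 CPM over 6 genes. Without the 40 and 24 cells left out as cycling or plasma-marker cells, Tgfb1 in regulatory T cells turned to 0.05, whereas Smad7 was at 0.35 and Skil at 0.69. The 5 natural killer markers summed to 144 CPM w/o and 18.5 CPM w/ butyrate in regulatory T cells, mainly from Nkg7 at 140 and 15.5 CPM. Of 14 immediate early and handling genes, 10 were counted in regulatory T cells, of which 3 were past the threshold higher and 2 lower. Fos was at 241 and 361 CPM, Jun at 341 and 445 CPM and Zfp36 at 161 and 233 CPM, whereas the whole list summed to 6182 and 6028 CPM. The part of these markers and genes in the Smad7 and Skil values was not tested.

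**Figure D2:**
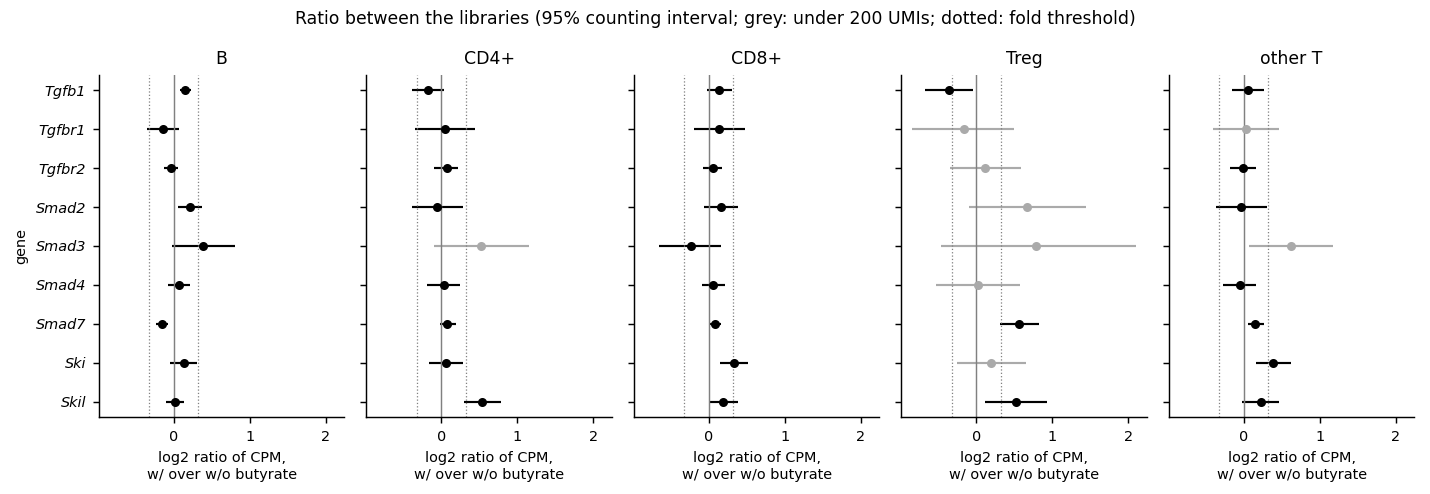
Log2 ratio of CPM w/ over w/o butyrate (x axis) for the 9 genes (y axis) in 5 lymphoid lineages (panels), with exact 95% counting intervals. Black points have at least 200 UMIs over both libraries and grey points fewer, and dotted lines mark the fold threshold of 0.32. Skil in CD4+ T cells (0.54), Smad7 and Skil in regulatory T cells (0.56 and 0.52) and Ski in CD8+ and other T cells (0.33 and 0.39) lie past the right dotted line with intervals off 0. So does Smad3 in other T cells (0.62), a grey point.

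**Figure D3:**
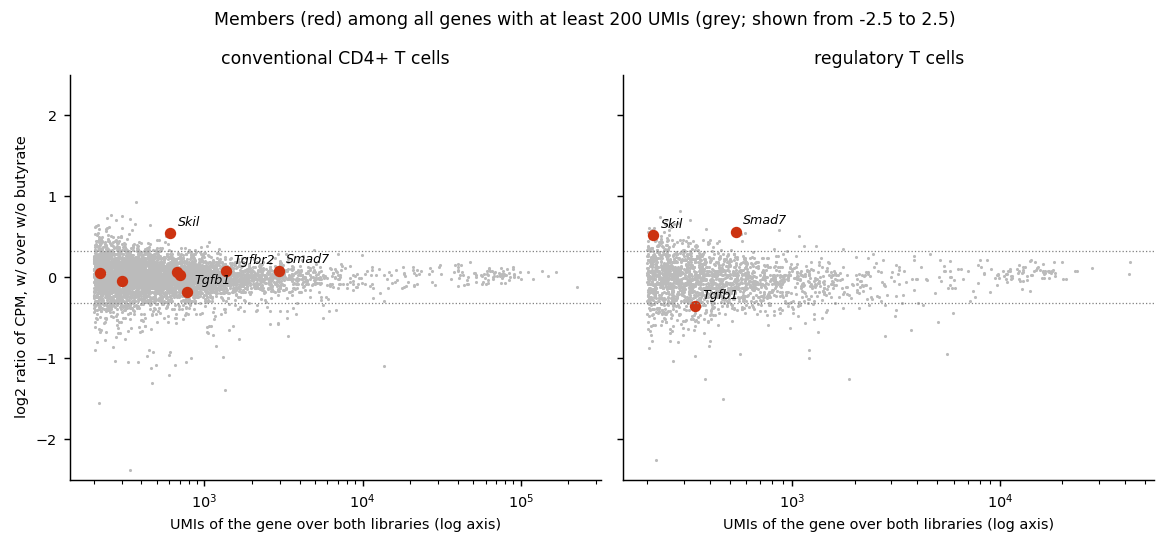
Log2 ratio of CPM w/ over w/o butyrate (y axis, shown from -2.5 to 2.5) against the UMIs of each gene over both libraries (x axis, log scale) in conventional CD4+ (left) and regulatory T cells (right), with all genes of at least 200 UMIs in grey and the TGF-beta genes in red. Skil (0.54) lies near the upper edge of the CD4+ cloud and the remaining red points lie inside the dotted lines at the fold threshold, and in regulatory T cells Smad7 (0.56) and Skil (0.52) lie above them and Tgfb1 (-0.36) below.

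Myeloid cells had too few UMIs for any member to be counted. Tgfb1 had 116 UMIs (367 CPM) w/o and 55 UMIs (163 CPM) w/ butyrate, and Tgfbr1 31 UMIs (98.1 CPM) and 9 UMIs (26.6 CPM), ratios of -1.18 (-1.67 to -0.70) and -1.88 (-3.14 to -0.78). A single cell held 8 of the 31 Tgfbr1 UMIs. The 36 and 29 cells also differed in neutrophil markers, of which 3 summed to 3120 CPM w/o and 10353 CPM w/ butyrate. S100a9 was at 1718 and 6397 CPM and S100a8 at 1285 and 3868 CPM. Csf3r went the other way, at 117 and 88.6 CPM, with an interval that included 0 (log2 -0.40, -1.15 to 0.33). The 6 dendritic markers summed to 34.8 and 222 CPM, mainly from Fscn1 at 28.5 and 154 CPM, whereas Ccr9 had 2 and 0 UMIs. Of the myeloid markers, Cst3 was at 1491 and 3247 CPM and Fcer1g at 2456 and 1442 CPM. Of the 2 platelet markers, Pf4 was at 791 and 795 CPM and Ppbp had 0 UMIs in both libraries. The part of these marker differences in the Tgfb1 and Tgfbr1 ratios was not tested.

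A large difference shared by the lymphoid lineages was that of the interferon-response list of 18 genes, whose median ratio lay between -0.53 in regulatory T cells and -1.04 in other T cells over the lymphoid lineages. In conventional CD4+ T cells it summed to 3692 and 1949 CPM, with 17 of 17 counted genes past the threshold lower. Leaving out cells in which it took 20 or more of 10000 UMIs gave Ski at 0.35 in CD8+ T cells and at 0.26, inside the threshold, in other T cells. In B cells no member was then past the threshold. In regulatory T cells, with 26 and 73 cells remaining, Smad7 was at 1.01, Skil at 0.89 and Tgfb1 at -0.76, and none reached 200 UMIs.

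The other 70 genes listed for the pathway included Pmepa1, a target gene whose protein dampens Smad signalling. In B cells Pmepa1 was lower w/ butyrate, at 16.2 and 11 CPM (-0.56, -0.80 to -0.32), and in CD8+ T cells it was higher, at 37.6 and 47.8 CPM (0.35, 0.17 to 0.52), as in other T cells, at 28.6 and 40 CPM (0.48, 0.19 to 0.78). Of the 28 other pathway genes counted in CD8+ T cells, 5 were past the threshold higher and 0 lower, beside 2.55% and 3.89% of all genes. Besides Pmepa1 these included Tgfbr3, a co-receptor, at 7.80 and 10.9 CPM (0.49, 0.11 to 0.88), and Ldlrad4, another inhibitor, at 6.79 and 9.87 CPM (0.54, 0.13 to 0.95). Id3, which restrains E protein transcription factors, was at 42.0 and 52.5 CPM (0.32, 0.16 to 0.49), at the edge of the fold used. Eomes, a transcription factor that TGF-beta is known to hold down, was also higher in CD8+ T cells, at 50.5 and 77.9 CPM (0.63, 0.48 to 0.77). Id2, listed with Eomes as held down by TGF-beta, went the other way, at 121 and 97.2 CPM (-0.32, -0.43 to -0.21). It lay just inside the lower threshold, so the split of higher and lower genes turns on genes at the edge of the fold.

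In B cells, 2 of 28 other pathway genes were past the threshold higher and 4 lower, where 4.03% and 3.69% of all genes were. The immunoglobulin constant genes Igha and Ighg2b, both listed as known to rise with TGF-beta signalling, went opposite ways. Igha was at 227 and 302 CPM (0.41, 0.36 to 0.47). Ighg2b was at 412 and 113 CPM (-1.86, -1.93 to -1.80), in cells whose plasma marker sum was lower w/ butyrate. The target gene Klf10 was at 7.92 and 6.04 CPM (-0.39, -0.73 to -0.05), and Smad1, a Smad of the BMP branch, at 5.19 and 6.65 CPM with an interval that included 0. In conventional CD4+ T cells, 0 of 20 were higher and 1 was lower, beside 3.25% and 4.92% of all genes. The lower gene was Furin, the protease that cleaves the TGF-beta precursor, at 24.2 and 15.5 CPM (-0.65, -1.05 to -0.25).

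Over all T cells, 2 of 40 other pathway genes were higher and 1 was lower, beside 2.51% and 4.11% of all genes. The lower gene was the granzyme gene Gzmb, at 8.74 and 3.06 CPM (-1.52, -1.90 to -1.14). Eomes and Ifng were the higher genes, at 0.58 (0.45 to 0.71) and 0.55 (0.20 to 0.90). In regulatory T cells Gzmb had 144 and 39 UMIs, too few to be counted there. In regulatory T cells 1 of 9 was higher, beside 5.07% of all genes, namely Usp15, at 63.1 and 80.5 CPM with an interval that included 0. In other T cells 2 of 21 were higher and 1 lower, beside 4.07% and 4.35% of all genes, with Id2 at 110 and 145 CPM (0.40, 0.25 to 0.55) and the Smad co-repressor Tgif1 at 22.5 and 15.7 CPM (-0.52, -0.93 to -0.11).

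Genes that hold and release latent TGF-beta are known to be used by regulatory T cells. Lrrc32 (GARP), which holds latent TGF-beta at the cell surface, was at 45.7 and 44.3 CPM there against 3.77 and 3.02 CPM in conventional CD4+ T cells. Itgb8, an integrin subunit that frees the ligand, was at 20 CPM (31 UMIs) w/o and 8.12 CPM (11 UMIs) w/ butyrate in regulatory T cells (log2 -1.30, -2.44 to -0.27). In conventional CD4+ T cells Itgb8 was at 4.31 CPM (24 UMIs) and 2.31 CPM (13 UMIs), also lower w/ butyrate, with an interval that included 0. Over all T cells, regulatory T cells included, it had 67 and 30 UMIs (log2 -1.22, -1.89 to -0.58). Other T cells held 12 and 4 of these UMIs and CD8+ T cells 0 and 2. B cells held 0 Itgb8 UMIs in both libraries. Lrrc32 and Itgb8 were named after their values were seen. Tgfb3 had 66 and 42 UMIs in B cells, and Smad6 and Smad9 had 0 UMIs in B cells in both libraries.

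The genes whose levels over 5 lineages in the 2 libraries (10 values) were most like those of Smad7, by Pearson r of log2 (CPM + 10) among 10111 genes, were Arhgap45 (r = 0.993), Sept6 (0.990) and Wdr33 (0.989). For Tgfb1 they were Ormdl2 (0.977), Atp6v1f (0.975) and Ankrd13a (0.971), for Tgfbr1 Tmx1 (0.991), Actr1a (0.986) and Plk3 (0.985), and for Tgfbr2 Zfp182 (0.943), Epb41 (0.928) and Cnot7 (0.927). The Smads gave Slc25a15 (0.917), Wdr47 (0.904) and Kansl2 (0.898) for Smad2, Tacc2 (0.947), Zkscan7 (0.915) and Rbfa (0.902) for Smad3, and Mettl9 (0.977), Pik3r5 (0.952) and Sema4a (0.948) for Smad4. Rab27a (0.966), Cdk2ap2 (0.953) and Asl (0.952) were closest to Ski and Erlec1 (0.916), Eml2 (0.913) and Anapc7 (0.909) to Skil. The 10 values share 2 libraries and include the small myeloid group, which sets much of the range.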

How the data were processed

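Cells of mediastinal lymph nodes were run on 10x Genomics 3' chemistry, 1 library per group with 4 mice pooled in each. The authors deposited raw UMI counts per gene and cell (31053 genes, 9681 and 8932 cells), made with Cell Ranger 6.0.1 on mm10 per the submitters' processing notes and not normalized. No column of per-sample values was left unmapped (0). The rest was computed here with Python 3.11.15 (numpy 2.4.6, pandas 2.3.3, scipy 1.17.1, scanpy 1.11.5, matplotlib 3.10.9). Filters took out 186 and 327 cells, those above 10% mitochondrial UMIs or with fewer than 200 detected genes. Doublets (735 and 615) were then taken as the top of the Scrublet ranking in each library, at a rate of 0.8% for every 1000 cells, since the study's doublet tool was not given in the sources used here.

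Lineages were set by UMIs. B cells had at least 2 of Cd79a, 0 of Cd3e and at most 2 of Lyz2. T cells had at least 1 of Cd3e, at most 1 of Cd79a and at most 2 of Lyz2. Myeloid cells had at least 3 of Lyz2, 0 of Cd3e and at most 1 of Cd79a. UMIs were summed per gene, lineage and library and scaled to CPM, per 1000000 UMIs. Levels carry exact Poisson and shares exact Clopper-Pearson 95% intervals, ratios the exact binomial interval of the UMIs given their sum, and all cover counting error only. The ratio step was run on simulated Poisson counts with planted changes. Those counts had no gathering of UMIs in single cells. The run therefore checked the calculation, not whether the intervals are wide enough for these data. With 1 library per group no test was run and no p-value exists. Background shares are over genes with at least 200 UMIs in a lineage. Named genes were the 9 members, pathway genes past the fold threshold of 0.32 on the log2 scale, at most the 5 furthest from 0 per lineage, and the 3 genes most like each member. Hgs was not used because its symbol stands on more than 1 row, as 35 symbols do. The members and lists were chosen with earlier results of these data known. Alternatives are given in the closing section. A planned split within CD4+ and CD8+ T cells is not reported here.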

Additional observations from a re-analysis of the deposited data

Results flagged for a closer look

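Smad7 was lower w/ butyrate in B cells (-0.16, -0.23 to -0.08). It was higher in CD8+ (0.08, 0.00 to 0.16), other (0.15, 0.05 to 0.26) and regulatory T cells (0.56, 0.31 to 0.82). The counting intervals were off 0, in CD8+ T cells only barely. The values in B, CD8+ and other T cells were inside the fold threshold. The difference of the log2 ratios was 0.24 between CD8+ T cells and B cells, 0.31 between other T cells and B cells and 0.72 between regulatory T cells and B cells. For Tgfb1, B cells were higher w/ butyrate (0.15) and regulatory T cells lower (-0.36), a difference of 0.51. These differences were not tested, since each group was 1 library. The Tgfb1 value in regulatory T cells turned to 0.05 without cycling cells and to 0.55 with cells thinned to 2000 UMIs, where the difference from B cells no longer had opposite directions.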

How the results depend on the processing

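The number of members past the fold threshold (0.32 on the log2 scale) is small, so single members near the fold or near 200 UMIs moved it. The share of all genes past the threshold under each setting is not given here. The counts therefore show how members moved, not how they stand against all genes. In B cells it went from 1 to 0 with at most 5% mitochondrial UMIs, with a pseudocount of 10 CPM, with free RNA subtracted, without cycling and plasma-marker cells and without cells rich in interferon-response RNA. In all T cells it went from 0 to 1 after thinning to 2000 UMIs. In conventional CD4+ T cells it went from 1 to 3 after thinning and to 2 with genes of at least 50 UMIs. In CD8+ T cells it went from 1 to 0 without doublet removal, with stricter lineage cuts, with a pseudocount of 10 CPM and without cycling and plasma-marker cells. In regulatory T cells it went from 3 to 0 after thinning and without cells rich in interferon-response RNA, where fewer UMIs were left, and to 1 without cycling and plasma-marker cells. In other T cells it went from 1 to 0 after thinning and without cells rich in interferon-response RNA and to 2 with genes of at least 50 UMIs. In the cells that met no lineage rule it went from 1 to 0 without doublet removal, without cycling and plasma-marker cells, without ribosomal, mitochondrial and immunoglobulin genes in the scaling, centred on the median of all genes and after thinning, and to 3 with genes of at least 50 UMIs.

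Skil in conventional CD4+ T cells lay between 0.43 and 0.60 in 13 alternatives, Ski in CD8+ T cells between 0.26 and 0.46, Smad7 in regulatory T cells between 0.35 and 1.01 and Skil in regulatory T cells between 0.32 and 1.04. Tgfb1 in regulatory T cells reversed to 0.55 after thinning and to 0.05 without cycling cells. Without cells rich in interferon-response RNA, regulatory over conventional CD4+ T cells w/o butyrate reversed to -0.27 for Tgfbr1 and to -0.19 for Skil, on 26 regulatory T cells. Of 676 alternative values of member ratios, 648 stayed within the counting interval, 26 moved out of it and 2 reversed. The 2 alternatives that leave out cycling or interferon-rich cells were chosen after seeing the data, and a first interferon cut of 5 UMIs was dropped because it left out 179 of 182 regulatory T cells w/o butyrate. The cause of each of these moves was not tested beyond what fewer cells or UMIs explain by construction. No paired analysis was possible because each group was 1 library. Depth limited Smad3, which passed 200 UMIs in B, CD8+ and all T cells only, and 6 of the 9 members in regulatory T cells stayed under 200 UMIs.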
